A study of Danio rerio with 13 samples.

Results

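Zebrafish embryos 1 h apart, at 11 and 12 hours post fertilization (hpf), were compared by the places in the genome where a 6mA antibody enriched their DNA. A place is given by a summit, the position of highest enrichment within a 6mA peak. The summits of 4 SYSY IP libraries, 2 replicates at 11 hpf and 2 at 12 hpf, were pooled, and summits with gaps of at most 250 bp on the same chromosome were chained into regions, which gave 9489 regions. Of these, 685 had a summit in both 11 hpf replicates and in neither 12 hpf replicate (7.22% of all regions, called 11 hpf only). Another 243 had a summit in both 12 hpf replicates and in neither 11 hpf replicate (2.56%, 12 hpf only). All 4 libraries had a summit in 840 regions (8.85%). These 1768 regions are described here, and their counts follow from the rule that chose them, so that the counts carry no test.

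N6-methyladenine (6mA) is a modified base of DNA. In bacteria it marks the host's own DNA for restriction systems and takes part in mismatch repair and replication, and in eukaryotes its presence and amount have been debated. In 6mA-IP-seq, DNA fragments are precipitated with an antibody against the modified base and sequenced, and peaks are called where the precipitated DNA gives more reads than the input DNA, which was not precipitated. At the ages compared the zebrafish embryo has finished gastrulation and is forming its first somites, while the 64C embryo is in its cleavage divisions and lives largely on maternal RNA. DNA of whole embryos was used, so that a change in the share of cells with 6mA at a place and a change in its level per cell cannot be told apart.

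All embryos were of the Tubingen line, kept in Holtfreter's solution, with no further treatment. The groups at 11, 12 and 13 hpf each held 2 libraries made with the antibody m6A from SYSY and 1 input, the only input listed for the stage. The 64C stage had 1 library with the same antibody and 1 with the m6A antibody from Abcam. The authors call the replicates at 11, 12 and 13 hpf biological. The labels only number them and do not say how the embryos were collected, so that biological and technical differences between replicates cannot be told apart. The 11 hpf lists held 7582 summits in 6832 peaks (replicate 1) and 4584 in 4114 (replicate 2), and the 12 hpf lists 3785 in 3531 and 4474 in 4148. Reads were not analysed here and the depth of the libraries is unknown. Reads of repeats were placed at 1 of their best matches at random, and no sequence or annotation of the build used (danRer10) was used here, so that regions are named by position alone. The 64C SYSY list held no summit on the unplaced scaffolds and stopped short of the end of 5 chromosomes.

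Most regions were held by a single library. One-library regions numbered 5891, of which 2699 were of 11 hpf replicate 1, 982 of 11 hpf replicate 2, 965 of 12 hpf replicate 1 and 1245 of 12 hpf replicate 2. A further 900 regions were in 3 libraries. In 930 regions 1 library of each stage, and no other, had a summit: 393 joined 11 hpf replicate 1 with 12 hpf replicate 2, 280 joined both replicates 1, 160 both replicates 2, and 97 joined 11 hpf replicate 2 with 12 hpf replicate 1. These 4 pairs, called cross-stage pairs, show how often libraries of different stages share a region that the remaining libraries lack. The 685 regions of the 11 hpf pair exceeded each of them. The 243 regions of the 12 hpf pair lay below 2 of the 4.

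**Figure D1:**
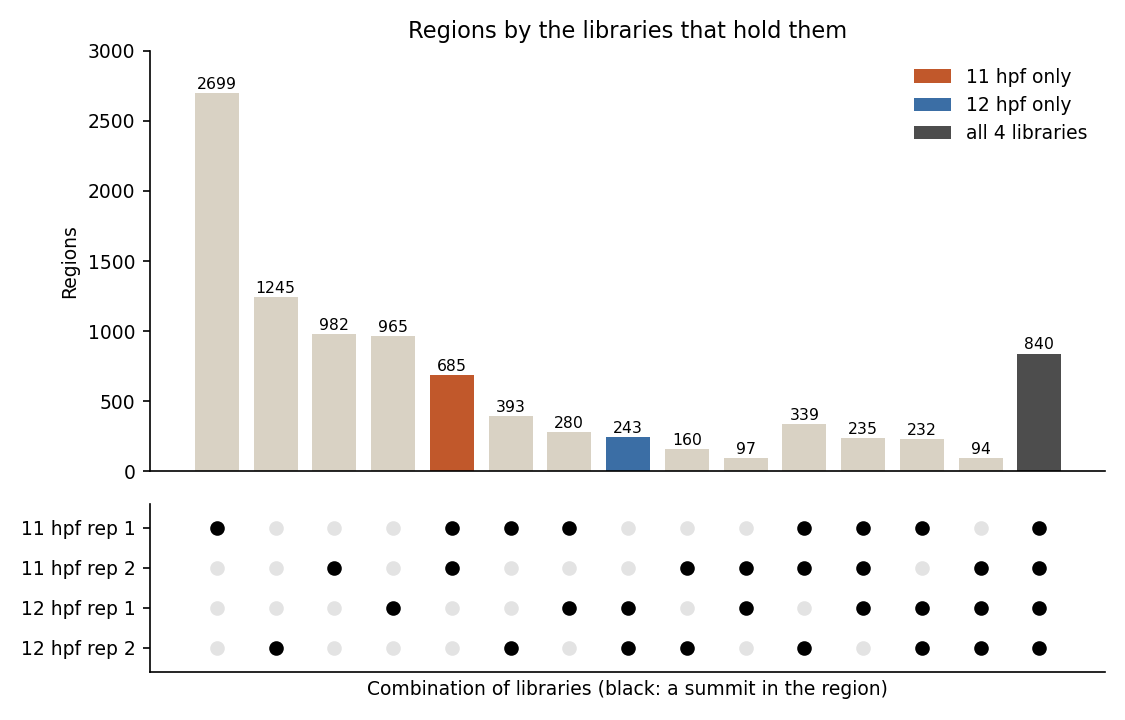
Number of regions (vertical axis) for each combination of the 4 libraries, with black points under a bar for the libraries that had a summit in the region. The tallest bar is the 2699 regions of 11 hpf replicate 1 alone, and the 243 regions of 12 hpf only are fewer than 2 of the cross-stage pairs.

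The number of stage-only regions moved with the length of the lists. When the 3785 highest-scoring summits were kept from each of the 4 lists, the number in the shortest, 388 regions were 11 hpf only, 342 were 12 hpf only and 614 were in all 4. The ratio of 11 hpf only to 12 hpf only was then 1.13, against 2.82 with all summits. The cross-stage pairs held 150, 173, 175 and 192 regions with lists of equal length. Both same-stage pairs thus exceeded every cross-stage pair in lists of equal length, and with all summits only the 11 hpf pair did. Only the 11 hpf pair did so at chaining distances of 100, 500 and 1000 bp. The 12 hpf pair then held 291, 218 and 209 regions, against 430, 351 and 336 in the largest cross-stage pair. With summits at or above the list median it held 153 against 176, with 1 summit per peak 245 against 398, and on chromosomes only 209 against 374. As a share of each full list's regions, 11 hpf only took 12.0% of the 5703 regions of 11 hpf replicate 1 and 20.0% of the 3432 of replicate 2. The 12 hpf only regions took 8.14% of the 2986 of 12 hpf replicate 1 and 6.85% of the 3546 of replicate 2. Regions of all 4 libraries took 14.7% and 24.5% of the 11 hpf lists and 28.1% and 23.7% of the 12 hpf lists. Without 1 library, the class of its stage takes in every region of the library that remains and that the other stage lacks. Thus 11 hpf only came to 1733 and 3453 regions without 11 hpf replicate 1 or 2, and 12 hpf only to 1512 and 1221 without 12 hpf replicate 1 or 2. The 12 hpf only count was 485 without 11 hpf replicate 1, and 347 without 11 hpf replicate 2. Only 1 input is listed per stage, so that both replicates were presumably called against it. Its part in the same-stage counts was not tested.

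**Figure D2:**
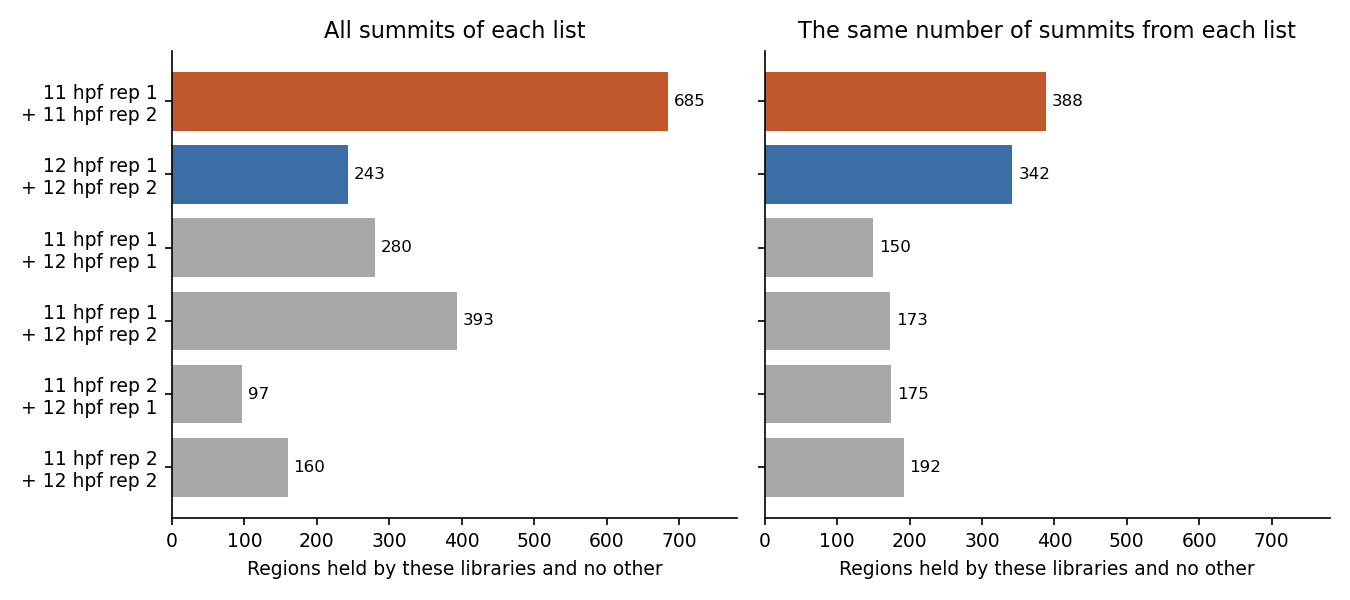
Number of regions held by 2 libraries and no other (horizontal axis), for the 6 pairs of libraries, with all summits (left) and with the 3785 highest-scoring summits of each list (right). With lists of equal length the 11 hpf pair held 388 and the 12 hpf pair 342 regions, and the cross-stage pairs between 150 and 192.

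The stage-only regions were compact, mostly with 1 summit from each replicate, and so were the cross-stage pairs, which also hold 2 libraries. The median distance from the first to the last base of a region was 46 bp for 11 hpf only and 41 bp for 12 hpf only, against 249.5 bp for regions of all 4 libraries. Exactly 1 summit per library was found in 522 of 685 regions of 11 hpf only (76.2%), 201 of 243 of 12 hpf only (82.7%) and 205 of 840 of all 4 (24.4%). The cross-stage pairs had a median width of 57 bp and exactly 1 summit per library in 782 of 930 regions (84.1%). The mean number of summits a library had in a region was 1.22 and 1.13 in 11 hpf replicates 1 and 2 for 11 hpf only, and 1.09 and 1.11 in 12 hpf replicates 1 and 2 for 12 hpf only. In regions of all 4 it was 2.37 and 2.02 at 11 hpf and 1.77 and 1.83 at 12 hpf. The best summits of the 2 replicates lay a median of 27 bp apart in 11 hpf only and 24 bp apart in 12 hpf only, and within 50 bp in 61.5% and 65.4% of regions. In regions of all 4 this offset was 37.5 bp between the 11 hpf replicates, 25 bp between the 12 hpf replicates and 52.5 to 61 bp between libraries of different stages. The widest region of 11 hpf only spanned 617 bp, that of 12 hpf only 431 bp and that of all 4 2556 bp. Since chaining joins nearby summits, a region with more libraries tends to be wider, and these sizes are given as a description.

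The 5 leading regions of 11 hpf only had scores of 15.1 to 26.1 in the 11 hpf lists, where the 5 leading regions of all 4 libraries had 21.6 to 38.5. A score is the −log10 of the q-value of a summit, and the lists had medians of 4.57 and 4.71 at 11 hpf and 4.32 and 4.34 at 12 hpf, with maxima of 46.8, 51.4, 41.7 and 38.6. The region of 11 hpf only with the best mean percentile, chr15:44583841-44583845, scored 24.5 in replicate 1 and 22.9 in replicate 2. It lay 3.19 Mb from the end of chromosome 15 and 5335 bp from the nearest 12 hpf summit, had 1 summit in each of the 64C lists and none at 13 hpf. It was followed by a region of the scaffold Un_KN150324v1 at bases 23900 to 23905, with scores of 26.1 and 18.9. Both 13 hpf replicates and the 64C Abcam list had a summit there, and no 12 hpf library had one anywhere on that scaffold. Next came chr1:51738623-51738624, with 22.8 and 18.0 and with summits 1 bp apart in the replicates. A 12 hpf summit lay 272 bp away, so that a matching distance of 500 bp would have joined it. It had 4 summits in the 64C SYSY list and none at 13 hpf. A region of all 4 libraries lay close by, at chr1:51738942-51739094, with percentiles of 96.7 and 92.3 at 11 hpf and 99.1 and 98.8 at 12 hpf.

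The remaining named regions of 11 hpf only lay near chromosome starts. At chr21:156897-156905 the scores were 16.8 and 20.2, the nearest 12 hpf summit was 20071 bp away, and both 13 hpf replicates and both 64C lists had a summit. At chr18:21183-21187 they were 15.1 and 21.6, with a summit in 13 hpf replicate 2 and in the 64C SYSY list. The region of 11 hpf only with the most summits, chr19:30072-30472, had 9 summits over both replicates and best scores of 17.9 and 15.4. It had 5 summits in each 64C list, and 2 and 1 in 13 hpf replicates 1 and 2. Of these 6 regions, 4 had a summit at 13 hpf.

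The 5 leading regions of 12 hpf only had scores of 11.4 to 19.7 in the 12 hpf lists, where the 5 leading regions of all 4 had 26.3 to 38.6. None of the 5 of 12 hpf only had a summit at 13 hpf. The first, chr12:48447386-48447487, scored 15.6 in 12 hpf replicate 1 and 19.7 in replicate 2, with 3 summits in each 64C list. It lay 0.773 Mb from the end of chromosome 12, and the nearest 11 hpf summit was 35615 bp away. At chr17:1729911-1729918 the scores were 15.3 and 14.2, with an 11 hpf summit 971 bp away. At chr7:71996636-71996641 they were 18.3 and 12.4, with the nearest 11 hpf summit 4468 bp away. The other two had an 11 hpf summit within 1000 bp. At chr12:7906299-7906301 the scores were 15.8 and 12.4 and that summit lay 308 bp away. A region of all 4 libraries lay beside it, at chr12:7906609-7906872. At base 1139082 of chromosome 24 both replicates had their summit at the same base, with scores of 16.2 and 11.4 and an 11 hpf summit 794 bp away. All 5 had a summit in the 64C SYSY list. The most summits in a region of 12 hpf only were 5, at chr6:53623213-53623643, with best scores of 5.58 and 4.34 and an 11 hpf summit 259 bp away, just outside the matching distance. That region had 1 summit in 13 hpf replicate 1. Among regions with a mean percentile above 75, 47.7% of 11 hpf only and 40.0% of 12 hpf only had a 13 hpf summit. No contrast between the stages was read from the few named regions.

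The leading regions of all 4 libraries had a summit at 13 hpf in both replicates. On the scaffold Un_KN149757v1, bases 15291 to 16045, 27 summits had best scores of 38.5 and 35.9 at 11 hpf and 27.5 and 35.9 at 12 hpf. At chr25:58630-58768 the scores were 28.0, 27.4, 31.8 and 31.0 in the same order. The scaffold Un_KN150535v1 had at bases 1279 to 1282 scores of 27.2, 27.2, 26.3 and 26.5, with 1 summit per library. At chr16:48511-48517 they were 25.5 and 22.1 at 11 hpf and 34.6 and 38.6 at 12 hpf. At chr23:44770024-44770391 they were 25.1 and 21.6 at 11 hpf and 28.2 and 28.9 at 12 hpf. Scores of different lists are not on 1 scale, since they grow with depth, and no change was read from them. The region with the most summits, chr10:17301546-17304101, held 58, of which 13 and 14 were of the 11 hpf and 14 and 17 of the 12 hpf replicates. It had a further 12 and 11 summits in the 13 hpf replicates and 18 in each 64C list, and lay 17.3 Mb from the nearer end.

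Within each list, stage-only regions ranked near the middle and regions of all 4 libraries higher. The percentile of the best summit of a region within its own list had a median of 55.6 in 11 hpf replicate 1 and 48.8 in replicate 2 for 11 hpf only, and of 51.8 and 52.8 in the 12 hpf replicates for 12 hpf only. For regions of all 4 the medians were 85.3 and 76.9 at 11 hpf and 76.2 and 78.5 at 12 hpf. A library had more summits in these regions, and over all their summits, not the best alone, the medians were 73.3, 67.7, 65.9 and 67.6, against 55.6 and 46.7 for 11 hpf only and 46.2 and 48.6 for 12 hpf only. The cross-stage pairs had medians of 46.2 and 39.4 at 11 hpf and 46.2 and 43.9 at 12 hpf, and regions of 1 library 38.8, 33.7, 40.6 and 39.8. Of the 100 highest summits of each list, 88, 87, 87 and 86 lay in regions of all 4 libraries, and 7, 5, 7 and 3 in stage-only regions. Of all summits of each list, regions of all 4 held 26.2%, 37.0%, 39.3% and 34.4%. Stage-only regions held 11.1% and 16.9% at 11 hpf and 7.00% and 6.01% at 12 hpf. These scores come from the lists that chose the regions, and a weak summit is more easily missed in another list, so that the ranks are given with no test.

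**Figure D3:**
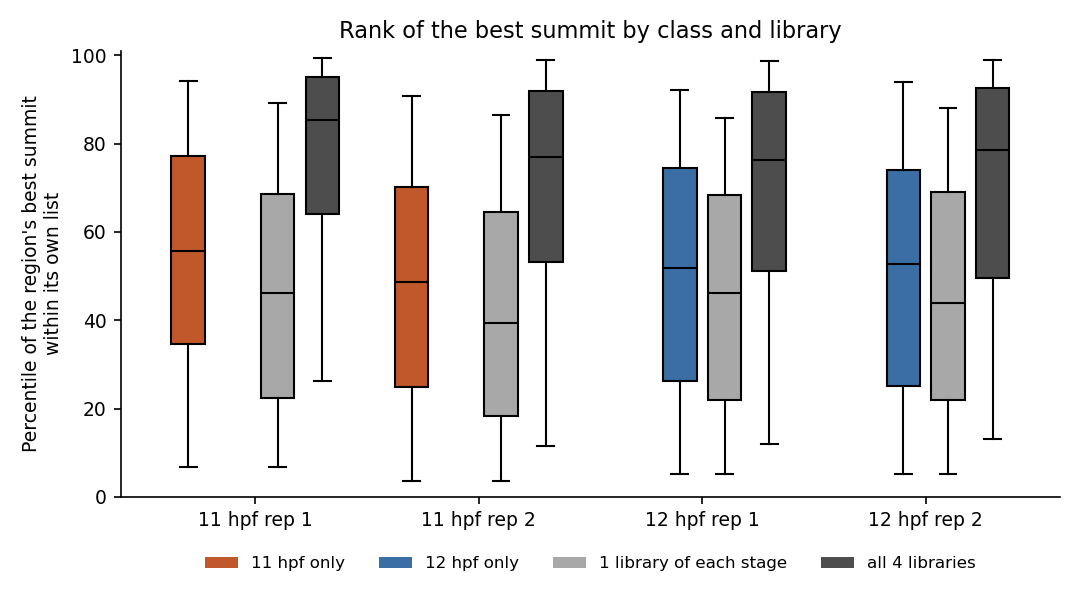
Percentile of the best summit of each region within its own list (vertical axis, 100 the highest score) by library. Boxes span the quartiles with a line at the median and whiskers the 5th to 95th percentile of the regions of a class, and the regions of all 4 libraries stand above the stage-only regions in each library, with medians of 85.3, 76.9, 76.2 and 78.5.

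The distance to the nearest summit of the other stage ranged widely. Of the 685 regions of 11 hpf only, 32 (4.67%) had a 12 hpf summit within 300 bp, 91 (13.3%) within 500 bp and 163 (23.8%) within 1000 bp. Of the 243 regions of 12 hpf only, 14 (5.76%), 41 (16.9%) and 62 (25.5%) had an 11 hpf summit within these distances. At the other end, 171 regions of 11 hpf only and 62 of 12 hpf only had no summit of the other stage within 100 kb. These include 17 and 9 regions with no such summit anywhere on the same sequence. The median distance was 15589 bp for 11 hpf only and 14001 bp for 12 hpf only. Without the regions that had an other-stage summit within 1000 bp, 522 of 11 hpf only and 181 of 12 hpf only remained. The gaps between neighbouring summits of the pooled lists had no break at 250 bp: 564 gaps measured 201 to 250 bp and 391 measured 251 to 300 bp. Within 10 kb of a region of all 4 libraries lay 13.1% of 11 hpf only, 11.9% of 12 hpf only and 13.3% of the cross-stage pairs. A neighbour of the same class within 10 kb was found for 83 regions of 11 hpf only (12.1%), 10 of 12 hpf only (4.12%) and 222 of all 4 (26.4%), a share that rises with the number in the class.

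All 3 classes were found on each of the 25 chromosomes and were dense toward chromosome ends, most of all the regions of all 4 libraries. The last summit on a chromosome in any list was taken as its end. The first and last 2 Mb, 7.46% of that length, held 270 of the 632 regions of 11 hpf only on chromosomes (42.7%, 95% Wilson interval 38.9 to 46.6), 70 of 209 of 12 hpf only (33.5%, 27.4 to 40.1) and 396 of 725 of all 4 (54.6%, 51.0 to 58.2). Among all regions the share was 38.4%, and among the cross-stage pairs 40.7%. Regions of 3 libraries had 46.5% and those of 1 library 34.4%, near the share of 12 hpf only. The share of 11 hpf only exceeded that of 12 hpf only by 9.23 percentage points (95% Newcombe interval 1.57 to 16.4) and differed from that of all 4 by -11.9 points (-17.1 to -6.57). With lists of equal length the first difference was 5.50 points (-2.09 to 13.0), an interval that includes 0. Taken without 11 hpf replicate 1 or without 11 hpf replicate 2, where a single library stands for 11 hpf, it was 1.54 and 0.454 points. It was 14.4 points without 12 hpf replicate 1 and 10.0 without 12 hpf replicate 2. Regions are not replicates of a stage, and these intervals cover counting error only.

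**Figure D4:**
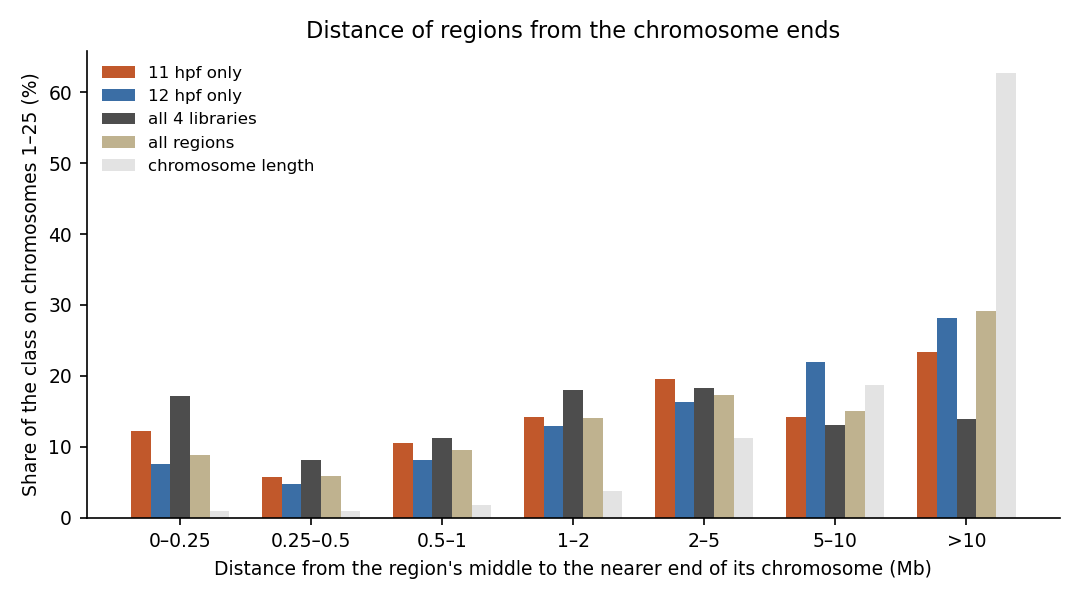
Share of the regions on chromosomes 1 to 25 (vertical axis, %) by distance from the middle of a region to the nearer end of its chromosome (horizontal axis, Mb, bins of unequal width), with the share of chromosome length in each bin. In the outermost 0.25 Mb lay 12.2% of 11 hpf only, 7.66% of 12 hpf only and 17.1% of the regions of all 4 libraries, against 0.933% of the length.

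The median distance to the nearer end was 2.76 Mb for 11 hpf only, 5.01 Mb for 12 hpf only and 1.73 Mb for all 4, against 3.68 Mb for all regions. The outermost 0.25 Mb held 12.2%, 7.66% and 17.1% of the 3 classes and 8.91% of all regions. Farther than 10 Mb from an end lay 23.4%, 28.2% and 13.9% of the classes, where 62.7% of the chromosome length lies. Of the 50 chromosome ends, 49 had a region of 11 hpf only within 2 Mb, 37 one of 12 hpf only and 50 one of all 4. Such a count rises with the number in the class, and the classes were not compared by it. The end that lacked 11 hpf only was the start of chromosome 1. The most at 1 end were 14 regions of 11 hpf only at the start of chromosome 12, 4 of 12 hpf only, and 20 of all 4 at the end of chromosome 15. In all, the start of chromosome 12 held 99 regions and the end of chromosome 15 held 115. Over chromosomes 1 to 25, 11 hpf only numbered 632 against 209 of 12 hpf only, among 8755 regions. By chromosome, 11 hpf only numbered 38 against 5 among the 403 regions of chromosome 4. It numbered 33 against 4 among the 341 of chromosome 9 and 36 against 7 among the 391 of chromosome 21. On chromosome 15 it numbered 27 against 3 among 384, and on chromosome 22 it was 9 against 1 among 230. It numbered 19 against 14 among the 337 of chromosome 17 and 18 against 13 among the 402 of chromosome 1. These chromosomes were picked after their counts were seen.

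On the unplaced scaffolds lay 53 regions of 11 hpf only (7.74%), 34 of 12 hpf only (14.0%) and 115 of all 4 (13.7%), against 7.74% of all regions and 6.45% of the cross-stage pairs. The share of 11 hpf only minus that of 12 hpf only was -6.25 points (-11.5 to -1.84). The 34 regions of 12 hpf only were spread over 33 scaffolds and the 53 of 11 hpf only over 49, with at most 2 on 1 scaffold. The 115 of all 4 were on 81 scaffolds with up to 5 on 1. Scaffolds of a draft assembly are often copies or repeats that could not be placed, and what the sequences at these regions were is not analysed here.

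Stage-only regions were found at 13 hpf about as often as regions shared by 1 library of each stage. A summit of either 13 hpf replicate lay within 250 bp of 221 of the 685 regions of 11 hpf only (32.3%, 28.9 to 35.9) and 69 of the 243 of 12 hpf only (28.4%, 23.1 to 34.4), against 27.1% of all regions and 33.0% (30.1 to 36.1) of the cross-stage pairs. Of the regions of all 4 libraries, 677 (80.6%, 77.8 to 83.1) had one. Among the 900 regions of 3 libraries the share was 52.2%, and among those of 1 library 14.0%, so that it rose with the number of libraries. The difference between 11 hpf only and 12 hpf only was 3.87 points (-3.00 to 10.3). Against the cross-stage pairs it was -0.748 points (-5.34 to 3.90) for 11 hpf only and -4.62 points (-10.7 to 2.04) for 12 hpf only. None of these 3 intervals leaves out 0, and they do not show that the shares are equal. Against all 4 the share of 11 hpf only was lower by 48.3 points (-52.6 to -43.8). The 13 hpf libraries differed in their shares. Replicate 1 had a summit at 23.5%, 21.4% and 69.0% of 11 hpf only, 12 hpf only and all 4, replicate 2 at 16.9%, 17.3% and 65.0%, and both at 8.18%, 10.3% and 53.5%. Of all regions these were 20.8%, 16.0% and 9.68%. Regions of all 4 were also wider, with a median of 249.5 bp against 46 bp (11 hpf only) and 41 bp (12 hpf only). A match could lie near any summit of a region, and the part of width in these shares was not tested. In both 13 hpf replicates the regions of all 4 stood far above the stage-only classes, while the order of the stage-only classes differed between replicates. The share of 12 hpf only was thus not above that of 11 hpf only beyond counting error, although 12 hpf is nearer in time to 13 hpf. The difference between the stage-only classes turned to -14.8 and -19.7 points without 11 hpf replicate 1 or 2, and to 21.8 and 22.5 points without 12 hpf replicate 1 or 2, where the class of the stage with 1 library takes in all that library's own regions.

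**Figure D5:**
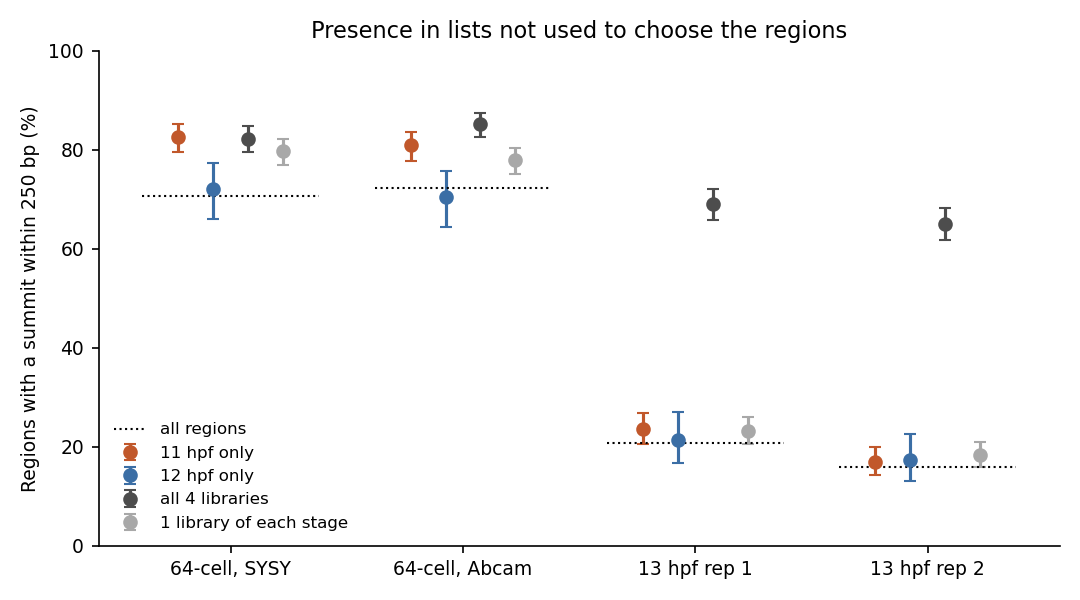
Share of the regions of each class with a summit within 250 bp (vertical axis, %) in the lists of 64C and 13 hpf, which did not choose the regions. Points are shares with 95% Wilson intervals as bars and dotted lines the share of all regions. Of the classes shown, the regions of all 4 libraries stand apart at 13 hpf, at 69.0% and 65.0%. Regions of 3 libraries, not shown, had 40.4% and 33.4%.

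Higher-ranking regions of 11 hpf only were found at 13 hpf more often than low-ranking ones. With regions grouped by their mean percentile (up to 25, up to 50, up to 75 and above), a summit lay at 23.0%, 26.9%, 32.7% and 47.7% of 11 hpf only, and at 23.5%, 20.8%, 33.8% and 40.0% of 12 hpf only. The intervals of the lowest and highest group were apart for 11 hpf only (15.4 to 32.9 and 39.3 to 56.2) and overlapped for 12 hpf only (12.4 to 40.0 and 27.0 to 54.5). The cross-stage pairs had 29.4%, 29.4%, 39.9% and 34.6%, and the intervals of their lowest and highest group overlapped (22.8 to 37.1 and 25.1 to 45.4). For all 4 the share was 4 of the 8 regions in the lowest group, and 61.9%, 77.2% and 90.7% in the others. Regions of all 4 thus had the larger share in every group, but in the lowest group their interval (21.5 to 78.5) overlapped those of the stage-only classes. Among regions with a best percentile of at least 50 in each of their libraries, 42.0% of 11 hpf only, 37.2% of 12 hpf only and 91.6% of all 4 had a 13 hpf summit, with 4.86 points (-7.87 to 16.7) between the stage-only classes.

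At 64C, regions of 11 hpf only and of all 4 libraries had a summit more often than all regions did, with either antibody. So did the cross-stage pairs and the regions of 3 libraries (84.9% SYSY, 82.1% Abcam). In the 64C SYSY list a summit lay at 565 regions of 11 hpf only (82.5%, 79.5 to 85.1), 175 of 12 hpf only (72.0%, 66.1 to 77.3) and 691 of all 4 (82.3%), against 70.6% of all regions and 79.7% of the cross-stage pairs. In the 64C Abcam list it was 554 (80.9%), 171 (70.4%) and 715 (85.1%), against 72.3% of all regions and 77.8% of the cross-stage pairs. The share of 12 hpf only lay within counting error of that of all regions in both lists. The SYSY list has no scaffold summits, though, and on chromosomes alone it had a summit at 83.7% of 12 hpf only (78.1 to 88.1) against 76.5% of all regions. Against the cross-stage pairs, 11 hpf only differed by 2.80 points in the SYSY list (-1.10 to 6.60) and 3.03 in the Abcam list (-0.999 to 6.95). For 12 hpf only the differences were -7.66 (-14.1 to -1.74) and -7.48 points (-14.0 to -1.42). On chromosomes alone the SYSY differences were 4.23 (0.783 to 7.55) and -1.44 points (-7.46 to 3.62). The share of 11 hpf only exceeded that of 12 hpf only by 10.5 points in the SYSY list (4.39 to 17.0) and by 10.5 points in the Abcam list (4.28 to 17.1). With lists of equal length these differences were 4.88 points (-0.824 to 10.7) and 6.26 points (0.312 to 12.2). On the stretches that the 64C SYSY list covers, its shares were 565 of 610 (92.6%), 175 of 202 (86.6%) and 689 of 698 (98.7%), against 6694 of 8512 of all regions (78.6%), and the difference between the stage-only classes was 5.99 points (1.34 to 11.7). Without 11 hpf replicate 1 or 2 the difference in the SYSY list was -4.71 and -5.66 points and in the Abcam list -0.301 and -0.604 points. It was 19.6 and 20.8 points in the SYSY list and 15.6 and 17.6 in the Abcam list without 12 hpf replicate 1 or 2. The 64C lists are each 1 library and have no replicate check.

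Where the other lists had a summit, the regions of all 4 libraries had the highest-ranking ones. The best 64C SYSY summit of a region had a median percentile within that list of 77.3 for 11 hpf only, 75.4 for 12 hpf only and 89.0 for all 4, against 71.9 for all regions and for the cross-stage pairs. In the 64C Abcam list the medians were 82.5, 77.9 and 87.2, against 75.4 for all regions. The best of several summits ranks higher than a lone one, and the SYSY list had a mean of 2.36, 2.13 and 4.00 summits in these regions, against 2.27 in all regions. Where it had a single summit, the medians were 65.8 for 11 hpf only, 64.6 for 12 hpf only and 85.6 for all 4, against 51.8 for all regions. With a single Abcam summit they were 62.0, 44.3 and 60.0, against 57.3, so that regions of all 4 did not stand apart there. At 13 hpf the best summits had medians of 58.1, 51.4 and 78.2 in replicate 1, and of 44.8, 65.4 and 74.6 in replicate 2, against 58.1 and 56.1 for all regions. The 13 hpf replicates thus put the 2 stage-only classes in opposite orders, with 161 and 52 regions in replicate 1 and 116 and 42 in replicate 2. With a single summit the medians were 56.7, 50.3 and 67.4 in replicate 1, against 48.9 for all regions. In replicate 2 they were 44.8, 67.1 and 61.6, against 47.5, so that 12 hpf only, with 39 such regions, stood highest there.

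Most regions of any kind had a summit at 64C. The 64C lists held 79291 (SYSY) and 53511 (Abcam) summits, and the 13 hpf lists 3476 (replicate 1) and 2439 (replicate 2). A longer list gives more matches in any class, so that shares at 64C and at 13 hpf are not on 1 scale. Absence at 13 hpf was not read as a loss. A summit at 64C with either antibody lay at 96.6% of 11 hpf only, 91.8% of 12 hpf only (87.6 to 94.6) and 98.1% of all 4, against 89.2% of all regions and 94.6% of the cross-stage pairs. Present at 64C and absent at 13 hpf were 448 regions of 11 hpf only (65.4%), 161 of 12 hpf only (66.3%) and 159 of all 4 (18.9%), against 63.5% of all regions. Both stage-only shares were thus near that of all regions, and that of all 4 was lower. Present at 13 hpf and absent at 64C were 7 (1.02%), 7 (2.88%) and 12 regions (1.43%), against 1.33% of all regions. Neither 64C nor 13 hpf had a summit at 16 regions of 11 hpf only (2.34%), 13 of 12 hpf only (5.35%) and 4 of all 4 (0.476%), against 9.43% of all regions.

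Within the regions of all 4 libraries, the ranks of the best summits were more alike within a stage than between stages. Both 11 hpf percentiles lay above both 12 hpf percentiles in 227 of 840 regions (27%) and below both in 159 (18.9%), and the stages overlapped in the remaining 454. The median difference of the stage means was 1.58 percentile points. The order of these counts changed with the way the ranks were taken. In lists of equal length 151 of 614 regions (24.6%) had both 11 hpf percentiles above and 163 (26.5%) below, and with the 840 regions ranked among themselves 198 (23.6%) and 207 (24.6%). The median differences were then -0.515 and -0.804 points, so that no direction was read from them. Across the 840 regions, which are not independent replicates, Spearman's rho was 0.682 between the 11 hpf replicates, 0.562 between the 12 hpf replicates and 0.384 to 0.444 between libraries of different stages. Pearson's r was 0.538, 0.438 and 0.276 to 0.337. Replicates of a stage have 1 listed input between them, and no test was made of these values. The 227 and 159 regions were alike in place: 55.3% and 55.0% of those on chromosomes lay in the first or last 2 Mb, 13.2% and 11.9% were on scaffolds, and 83.3% and 85.5% had a 13 hpf summit, with overlapping intervals.

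Some regions of all 4 stood far apart in rank, and these were chosen after their values were seen. At chr11:43675535-43675693 the best summit was at percentiles 75.8 and 87.3 in the 11 hpf replicates and at 0.978 and 13.0 in the 12 hpf replicates. On the scaffold Un_KN150407v1, bases 509 to 803, it was at 1.49 and 8.24 at 11 hpf and at 90.5 and 91.1 at 12 hpf. At chr4:75000405-75000591 it was at 33.0 and 21.5 at 11 hpf and at 98.8 and 95.7 at 12 hpf. In all 3 the stages did not overlap.

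Over whole lists no difference between the stages could pass a threshold of 0.05. With 2 libraries a stage the exact permutation test has 6 assignments and cannot give a two-sided p below 0.333. The number of summits was 6083 ± 2120 (SD, n = 2) at 11 hpf and 4130 ± 487 at 12 hpf, a difference of 1954 with p = 0.333 (exact permutation test), and without 11 hpf replicate 1 the difference fell to 454.5. The share of summits in the first or last 2 Mb was 44.1% and 46.3% at 11 hpf and 44.4% and 42.3% at 12 hpf, a difference of 1.89 points (exact permutation p = 0.667). Within 250 bp of a 13 hpf summit lay 40.3% and 50.6% of the 11 hpf summits and 48.8% and 46.4% of the 12 hpf summits, a difference of -2.17 points (exact permutation p = 1). With lists of equal length that difference was 3.45 points, the other way. Within 250 bp of a 64C SYSY summit lay 76.1% and 79.1% at 11 hpf and 75.2% and 75.9% at 12 hpf, a difference of 2.08 points (exact permutation p = 0.333), the lowest p that the design allows. In all of these shares the 2 replicates of 11 hpf differed from each other by more than the stage means did.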

How the data were processed

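Genomic DNA of whole zebrafish embryos was measured by 6mA-IP-seq, sequenced as 50 bp single-end reads. Reads were aligned by the authors to danRer10 with Bowtie (version 1.0 in the submitters' processing notes), 1 of several best matches being taken at random, and the authors called peaks with MACS2 for each IP library against the input at a false discovery rate of 0.01. The authors deposited the summit positions of each IP library with the −log10 of the q-value, from 2 upward. Inputs were not analysed here. Groups were taken from the labels. A q-value grows more extreme with depth, and scores were therefore ranked within a list only.

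Summits, counted from 1, were chained at 250 bp as described and matched to the 64C and 13 hpf lists within 250 bp of any summit of a region. Shares have 95% Wilson and differences 95% Newcombe intervals, for counting error only. Library values were compared by two-sided exact permutation. The chaining and counting were tested on simulated lists. Named are, per class, the 5 regions with the best mean percentile of their best summits and the region with the most summits. The regions and comparisons were chosen with earlier results of these data known. Alternatives were distances of 100, 500 and 1000 bp, summits at or above the list median, lists of equal length, 1 summit per peak, chromosomes only, end zones of 1 and 5 Mb, the range of the 64C SYSY list, each library left out, a replicate block and, chosen after seeing the data, the absence of the other stage within 1000 bp, the cross-stage pairs under each alternative, a best percentile of at least 50, and the order of the stages in regions of all 4 with lists of equal length or with ranks among those regions. Tables were handled with pandas 2.3.3 and NumPy 2.4.6 under Python 3.11.15, tests were from SciPy 1.17.1, and plots were made with matplotlib 3.10.9.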

Additional observations from a re-analysis of the deposited data

How the results depend on the processing

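Counts of regions moved with the settings, from 388 to 845 for 11 hpf only and from 399 to 857 for all 4 with every library kept. Shares at 13 hpf, at 64C and near the ends mostly kept their direction, apart from the differences given below. With summits at or above the list median 426 regions were 11 hpf only, 153 were 12 hpf only and 399 were in all 4 libraries, and with lists of equal length 388 were 11 hpf only. At 13 hpf, 11 hpf only minus 12 hpf only turned to -3.55 points at 100 bp. In the 64C SYSY list, 11 hpf only minus all 4 was 0.220 points and turned to -0.501 at 1000 bp, -0.00217 with 1 summit per peak, -5.91 on chromosomes only and -6.09 over the range of that list. The same list gave 4.88 points for 11 hpf only minus 12 hpf only with lists of equal length, and the end zones 5.50 points. In the 64C Abcam list, 11 hpf only minus all 4 was -4.24 points and its interval took in 0 at 500 bp (-2.96), at 1000 bp (-2.49), at or above the median (-4.04), with equal lists (-2.83) and on chromosomes only (-3.40), as did 11 hpf only minus 12 hpf only at or above the median (6.11). With 1 summit per peak the mean summits per region fell to 1.13 in 11 hpf replicate 1 (11 hpf only), 1.07 and 1.07 in 12 hpf only, and 1.62, 1.49, 1.45 and 1.45 in all 4. The share of regions of all 4 with both 12 hpf percentiles on top was 18.9%, and 26.5% with equal lists and 24.6% with ranks among these regions. Over whole lists the 13 hpf difference turned to 3.45 points with equal lists.

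Leaving out 1 library makes its stage a single library, so that the class fills with that library's own regions. The counts then ranged from 932 to 3453 for 11 hpf only, 347 to 1512 for 12 hpf only and 940 to 1175 for all 4. The difference of 11 hpf only and 12 hpf only ranged from -19.7 to 22.5 points at 13 hpf, -5.66 to 20.8 in the 64C SYSY list, -0.604 to 17.6 in the Abcam list and 0.454 to 14.4 near the ends. That of 11 hpf only and all 4 ranged from -56.1 to -33.4, -13.6 to 0.896, -13.4 to -1.72 and -15.4 to -6.55 points. Between libraries the differences ranged from 454.5 to 3452.5 summits, 0.761 to 3.02 points near the ends, -7.29 to 2.95 at 13 hpf and 0.588 to 3.56 at 64C. With a replicate block the 4 differences (1954 summits, and 1.89, -2.17 and 2.08 points) had exact permutation p-values of 0.5, 1, 1 and 0.5, where 0.5 is the lowest possible. The deviations of same-numbered libraries had r = 0.0209 over 9489 regions. In 5891 of these regions only 1 library, and so only 1 stage, had a summit. This r thus cannot settle whether the numbers mark pairs, and outside the block they were not taken as pairs. The causes of the other shifts were not tested. Depth limits the counts by an amount that is unknown without reads.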
